A study of Mus musculus with 16 samples.

Results

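The subject is a set of 10 antioxidant enzyme genes that the mouse heart uses against superoxide and peroxides: the superoxide dismutases Sod1, Sod2 and Sod3, the glutathione peroxidases Gpx1, Gpx3 and Gpx4, the peroxiredoxins Prdx3 and Prdx5, catalase (Cat) and the mitochondrial thioredoxin reductase Txnrd2. The members were all array probes whose RefSeq accession maps to these genes, which gave 11 probes of 56487, and 10 genes of 22873 with a symbol. Txnrd2 had 2 probes and the other 9 genes had 1 each. All 10 genes were among the 13725 that passed the filter on dim probes, and each of the 11 probes lay well above background and unsaturated on 16 of 16 arrays, so no member entered through 1 group alone.

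Total RNA (100 ng) from the heart apex of 16 male C57Bl/6 mice was labelled with Cy3 and hybridised to Agilent mouse arrays that read 1 colour. Mice of the AKT1+AKT2 double knockout (DKO) carried loxP sites around exons 6 to 7 of Akt1 and exons 5 to 6 of Akt2, AKT2 KO mice only those in Akt2, AKT1 KO mice only those in Akt1, and control mice neither, with 4 mice in each group. All 16 mice, controls included, were heterozygous for MerCreMer, a drug-inducible Cre recombinase under the αMHC promoter that acts in cardiomyocytes, and all received 500 µg hydroxytamoxifen a day for 5 days at 3 months of age and were sampled on day 21 after induction. The sample titles also carry the word untreated, which stands beside a protocol that gives the inducing drug and nothing further. Because the Cre acts in cardiomyocytes, the other cells of the apex keep both Akt genes, and in bulk tissue fewer cells of a type and less RNA per cell cannot be told apart. The p-values measure the spread between these mice, and the labels name no litters or breeding batches.

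Superoxide dismutases turn superoxide into hydrogen peroxide. Catalase then splits the peroxide, and glutathione peroxidases and peroxiredoxins reduce it with glutathione or thioredoxin as the source of electrons. In heart muscle most superoxide arises in the mitochondria, where Sod2, Prdx3 and Txnrd2 work, while Sod1 and Gpx1 are mainly cytosolic, catalase is peroxisomal, Sod3 and Gpx3 are secreted, and Prdx5 and Gpx4 are found in several compartments, mitochondria among them. AKT kinases act below insulin and growth factor receptors, and the FoxO transcription factors that they phosphorylate are known regulators of Sod2 and Cat.

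In DKO hearts the set moved in both directions. Transcripts of the mitochondrial enzymes Sod2 and Prdx3 and of Prdx5 fell, those of the secreted enzymes Gpx3 and Sod3 and of peroxisomal Cat rose, and Gpx1, Txnrd2, Gpx4 and Sod1 did not pass the test. In all, 6 of 10 members were called at an adjusted p under 0.05 (limma, Benjamini-Hochberg over all genes), against 45.6% of the 13725 genes tested, and 3 were higher and 3 lower, against 24.4% and 21.2% of all genes. With 10 genes and so much of the array called, that share is not read as a result about the set. The 4 DKO arrays did not overlap the 4 control arrays for 7 of 10 members, against 44.4% of all genes. The median log2 change over the 3 mitochondrial members was -0.80, over the 2 members in several compartments -0.36, over the 3 cytosolic or peroxisomal members 0.43 and over the 2 secreted members 1.87, beside 0.12 over all 10 and 0.02 over all genes tested. These medians rest on 2 or 3 genes each, and the range within the mitochondrial members alone was -1.29 to 0.13.

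**Figure D1:**
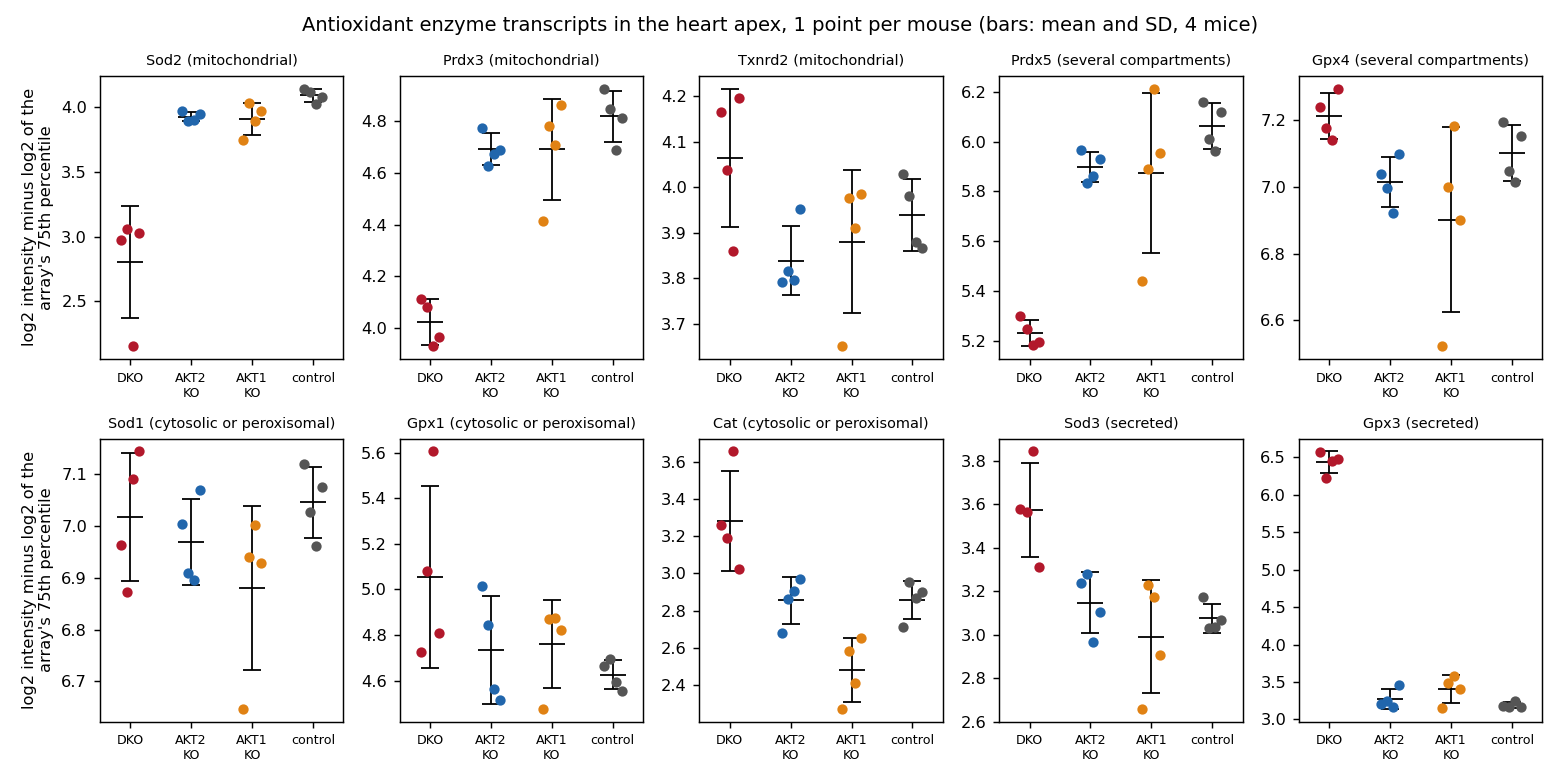
Level of each of the 10 enzyme transcripts on every array (vertical axis: log2 intensity minus log2 of the array's 75th percentile; 1 point per mouse, bars the mean and SD of 4 mice, groups DKO, AKT2 KO, AKT1 KO and control from left to right). The DKO points lie below all control points for Sod2, Prdx3 and Prdx5 and above all of them for Gpx1, Cat, Sod3 and Gpx3.

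A few facts of the arrays bear on all values. Akt2 was 2.00 lower on the log2 scale in DKO hearts and 2.37 lower in AKT2 KO hearts than in control (adjusted p = 1.54e-09 and 1.39e-09), while neither Akt1 probe was called in any knockout against control. The position of the probes relative to the floxed exons is not known here, so the Akt1 probes do not check those labels. DKO replicate 3 stood apart on the first principal component, at 78.6 against 42.5 to 47.8 for the other 3 DKO arrays, and the DKO group had the widest spread, with a median SD over genes of 0.25 against 0.09 in control. Both slides carried 2 arrays of each group, and each group kept to its own array column, so column and group cannot be told apart. Cell type markers moved in DKO hearts as well, where 24.4% of all genes were called higher and 21.2% lower. Of 10 cardiomyocyte markers 9 were lower, with a summed level (in units of each array's 75th percentile) of 2637 to 3181 in DKO and 3660 to 4143 in control, and 8 of 8 fibroblast markers were higher, with sums of 298 to 393 in DKO and 190 to 201 in control. Of 10 macrophage markers 7 were higher, with sums of 38.3 to 53.0 in DKO and 31.7 to 35.6 in control, while of 8 endothelial markers 1 was lower and none was higher. Of 5 adipocyte markers tested 3 were higher and 1 lower, but Cidec and Car3, which were among the higher, passed the filter through the DKO arrays alone, and Adipoq, Plin1 and Retn were not above background. The adipocyte sum was 170 on DKO replicate 3, 102 to 110 on the other DKO arrays and 94.8 to 110 in control. Of 5 Schwann cell markers 3 were higher (sums 1.99 to 3.33 in DKO and 1.69 to 2.18 in control), and of 6 smooth muscle markers 2 were higher and 2 lower (sums 82.1 to 98.7 in DKO and 113 to 120 in control). By limma 0 of the neutrophil, lymphocyte, red blood cell and mesothelial markers were called, and 0 had an unadjusted p under 0.05. The part of these shifts in the changes of the enzymes was not tested. In AKT1 KO and AKT2 KO hearts 0 of the 10 cardiomyocyte and 0 of the 8 fibroblast markers were called, and 0 of either list had an unadjusted p under 0.05.

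Sod2, the manganese superoxide dismutase of the mitochondrial matrix, had the largest fall of the 10. Its log2 level was 2.98, 3.06, 2.15 and 3.03 on the 4 DKO arrays, 3.97, 3.89, 3.90 and 3.95 on the AKT2 KO arrays, 3.74, 4.04, 3.89 and 3.97 on the AKT1 KO arrays, and 4.14, 4.12, 4.03 and 4.08 on the control arrays. Every DKO array lay below every array of the other groups, and DKO replicate 3 was the lowest of all 16. Sod2 averaged 2.80 ± 0.43 in DKO and 4.09 ± 0.05 in control hearts (SD, n = 4 each), a 2.44-fold lower level (log2 change -1.29, 95% interval -1.62 to -0.96, limma adjusted p = 1.43e-05). Without DKO replicate 3 the change was -1.07 (limma adjusted p = 5.83e-08). The AKT2 KO arrays also lay wholly below the control arrays for Sod2, by a mean of 0.16, which did not pass the test. That test takes its spread from all 4 groups, and the SD of Sod2 was 0.43 in DKO, 0.035 in AKT2 KO and 0.050 in control. In the 30 alternative settings, among them a fit to the groups compared only, the lowest limma adjusted p was 0.188.

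Prdx3, the peroxiredoxin of the mitochondrial matrix, was also lowest in DKO hearts. Its log2 level was 4.11, 4.08, 3.93 and 3.97 on the DKO arrays, 4.78, 4.63, 4.67 and 4.69 on the AKT2 KO arrays, 4.41, 4.78, 4.71 and 4.86 on the AKT1 KO arrays, and 4.93, 4.85, 4.69 and 4.81 on the control arrays. The DKO arrays overlapped none of the other groups, and AKT1 KO replicate 1 was the array nearest to them. Prdx3 was 1.74-fold lower in DKO than in control hearts (log2 change -0.80, interval -0.99 to -0.60, limma adjusted p = 1.04e-05).

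Prdx5, a peroxiredoxin found in mitochondria, peroxisomes and cytosol, fell to a like degree. It read 5.30, 5.25, 5.19 and 5.20 on the DKO arrays, 5.97, 5.84, 5.86 and 5.93 on the AKT2 KO arrays, 5.44, 5.89, 6.21 and 5.95 on the AKT1 KO arrays, and 6.16, 6.01, 5.96 and 6.12 on the control arrays. The 4 DKO arrays were the lowest 4 of the 16 and lay close together, while the AKT1 KO arrays spread from 5.44 to 6.21. The level was 1.78-fold lower in DKO than in control hearts (log2 change -0.83, interval -1.09 to -0.57, limma adjusted p = 7.29e-05).

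Txnrd2, the selenoprotein that keeps mitochondrial thioredoxin reduced and so serves Prdx3, had no called change. Its brighter probe read 4.16, 4.04, 3.86 and 4.20 on the DKO arrays and 4.03, 3.98, 3.88 and 3.87 on the control arrays. DKO replicate 3 was the lowest of these 8 arrays and the other 3 DKO arrays the highest. The log2 change was 0.13 (interval -0.07 to 0.32, limma adjusted p = 0.285), and that of the dimmer probe was 0.03 (limma adjusted p = 0.845 over all probes). The interval does not reach the change of Sod2 or of Prdx3. Weighting the arrays by their scatter in these data brought the brighter probe to 0.17 and past the test (limma adjusted p = 0.0281). That weighting gave DKO replicate 3 a weight of 0.06. With this array left out instead, the change was 0.19 and did not pass (limma adjusted p = 0.0700).

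Gpx4, the selenoprotein that reduces lipid peroxides within membranes, read 7.24, 7.18, 7.14 and 7.30 on the DKO arrays and 7.20, 7.05, 7.01 and 7.15 on the control arrays. The groups overlapped. Its log2 change was 0.11 (interval -0.12 to 0.35, limma adjusted p = 0.432). Under quantile normalization the sign turned, to -0.16, again without passing the test.

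The stretches before the start sites of the 3 genes that fell are shown because these genes moved together and because FoxO factors, known regulators of Sod2, are targets of AKT. They are the 250 bases before the annotated start of each gene, on the gene's own strand, 5′ to 3′, from RefSeq for GRCm38.p6. Capitals mark GC boxes (GGGCGG, either strand, overlaps counted).
Sod2 (chr17:13007589-13007838, + strand): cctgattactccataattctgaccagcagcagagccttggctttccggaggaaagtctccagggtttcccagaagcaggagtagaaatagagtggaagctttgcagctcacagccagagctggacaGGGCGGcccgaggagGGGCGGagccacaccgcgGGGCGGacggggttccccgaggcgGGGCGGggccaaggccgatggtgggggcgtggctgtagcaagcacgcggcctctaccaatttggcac
Prdx3 (chr19:60874539-60874788, - strand): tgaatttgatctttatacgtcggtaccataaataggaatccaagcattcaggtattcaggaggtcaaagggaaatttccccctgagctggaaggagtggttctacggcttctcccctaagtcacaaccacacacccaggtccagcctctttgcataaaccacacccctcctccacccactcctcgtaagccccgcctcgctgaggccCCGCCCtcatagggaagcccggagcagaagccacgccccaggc
Prdx5 (chr19:6910107-6910356, - strand): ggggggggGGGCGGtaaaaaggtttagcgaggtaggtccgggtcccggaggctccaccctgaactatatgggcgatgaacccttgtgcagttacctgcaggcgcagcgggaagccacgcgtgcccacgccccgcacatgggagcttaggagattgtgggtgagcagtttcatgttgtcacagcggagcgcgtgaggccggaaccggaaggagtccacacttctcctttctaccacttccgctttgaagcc
Sod2 held 4 GC boxes between 124 and 62 bases before its start, Prdx3 held 1 in the opposite orientation 43 to 38 bases before it, and Prdx5 held 1 at 242 to 237. Of 32851 promoter stretches of the same length 32.7% held at least 1 GC box. The search had 5 motifs. A FoxO motif (GTAAACA, in 3.17% of all stretches), an antioxidant response element (TGACNNNGC, in 10.2%), an ERR motif (TNAAGGTCA, in 1.14%) and an NRF1 motif (in 3.74%) were searched first, on both strands, and none was found in the stretches of Sod2, Prdx3, Prdx5, Cat or Gpx3. The GC box was added after those 4 had no match there, so its presence was chosen after the sequences were seen. A match is a string of letters and no evidence of binding, and the lack of one concerns these 250 bases only.

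Among the cytosolic and peroxisomal enzymes, Cat rose, Gpx1 lay just short of the test and Sod1 did not pass it. Cat, the peroxisomal haem enzyme that splits hydrogen peroxide, read 3.26, 3.19, 3.66 and 3.02 on the DKO arrays, 2.68, 2.86, 2.91 and 2.97 on the AKT2 KO arrays, 2.27, 2.58, 2.41 and 2.65 on the AKT1 KO arrays, and 2.71, 2.95, 2.87 and 2.90 on the control arrays. The DKO arrays were the highest 4 and the AKT1 KO arrays the lowest 4 of the 16. Cat was 1.34-fold higher in DKO than in control hearts (log2 change 0.43, interval 0.16 to 0.69, limma adjusted p = 0.0121). DKO replicate 3 was the highest array, and without it the change was 0.30 (limma adjusted p = 0.0236).

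Gpx1, the main cytosolic glutathione peroxidase and a selenoprotein, read 4.72, 5.08, 5.61 and 4.81 on the DKO arrays and 4.66, 4.69, 4.59 and 4.56 on the control arrays. The groups did not overlap, and DKO replicate 3 was the highest array. Its log2 change was 0.43 (interval 0.07 to 0.79, limma adjusted p = 0.0519). It passed the test in 7 of 30 alternative settings, for example without DKO replicate 1 (0.54, limma adjusted p = 0.0217), and without DKO replicate 3 the change was 0.24 (limma adjusted p = 0.137).

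Sod1, the copper-zinc dismutase of the cytosol, read 6.96, 6.87, 7.09 and 7.14 on the DKO arrays and 7.12, 7.03, 6.96 and 7.08 on the control arrays. The groups overlapped. The log2 change was -0.03 (interval -0.22 to 0.16, limma adjusted p = 0.821). Quantile normalization gave -0.35 (limma adjusted p = 0.000155) while the authors' deposited values gave -0.05, so a fall of Sod1 depended on that scaling.

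The secreted enzymes both rose, and Gpx3 far more than any other member. Gpx3, the glutathione peroxidase of plasma and the extracellular space and a selenoprotein, read 6.57, 6.22, 6.44 and 6.48 on the DKO arrays, 3.21, 3.25, 3.17 and 3.47 on the AKT2 KO arrays, 3.15, 3.49, 3.58 and 3.40 on the AKT1 KO arrays, and 3.18, 3.16, 3.25 and 3.17 on the control arrays. Every DKO array lay far above every array of the other groups, which overlapped each other. Gpx3 averaged 6.43 ± 0.15 in DKO and 3.19 ± 0.04 in control hearts (SD, n = 4 each), a 9.46-fold higher level (log2 change 3.24, interval 3.03 to 3.46, limma adjusted p = 8.59e-11). It ranked 19 from the top of all 13725 genes by log2 change. Without DKO replicate 3 the change was 3.24 (limma adjusted p = 4.03e-10).

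Sod3, the dismutase that binds the extracellular matrix, read 3.58, 3.57, 3.84 and 3.31 on the DKO arrays, 3.24, 3.28, 2.97 and 3.103 on the AKT2 KO arrays, 2.66, 3.23, 3.17 and 2.91 on the AKT1 KO arrays, and 3.17, 3.03, 3.04 and 3.07 on the control arrays. Every DKO array lay above every other array. Sod3 was 1.41-fold higher in DKO than in control hearts (log2 change 0.50, interval 0.22 to 0.78, limma adjusted p = 0.00593).

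The same stretch before the start site is shown for the members that rose and had an entry, Cat and Gpx3, with GC boxes in capitals as above.
Cat (chr2:103485154-103485403, - strand): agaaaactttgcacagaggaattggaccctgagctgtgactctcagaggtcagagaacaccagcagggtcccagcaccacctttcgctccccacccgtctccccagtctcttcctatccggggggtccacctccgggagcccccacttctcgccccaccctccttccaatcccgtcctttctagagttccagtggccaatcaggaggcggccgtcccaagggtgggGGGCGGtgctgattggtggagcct
Gpx3 (chr11:54902604-54902853, + strand): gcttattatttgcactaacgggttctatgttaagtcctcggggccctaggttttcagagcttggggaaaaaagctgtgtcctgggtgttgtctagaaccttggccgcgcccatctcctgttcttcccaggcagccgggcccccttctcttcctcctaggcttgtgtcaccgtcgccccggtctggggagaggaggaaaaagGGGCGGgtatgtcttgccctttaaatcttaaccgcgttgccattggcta
Each held 1 GC box, at 24 to 19 bases before the start of Cat and 49 to 44 before that of Gpx3. Among the members that did not pass the test, Sod1 held 1 match to the antioxidant response element 56 to 48 bases before its start 2 of the 4 Gpx4 stretches held an NRF1 match, and the stretch of Gpx1 held none of the 5 motifs. GC boxes also stood before members that did not pass the test, with 4 in the stretch of Sod1, 1 in that of Txnrd2 and at least 1 in 3 of the 4 Gpx4 stretches. Stretches were found for 9 of 10 members.

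**Figure D2:**
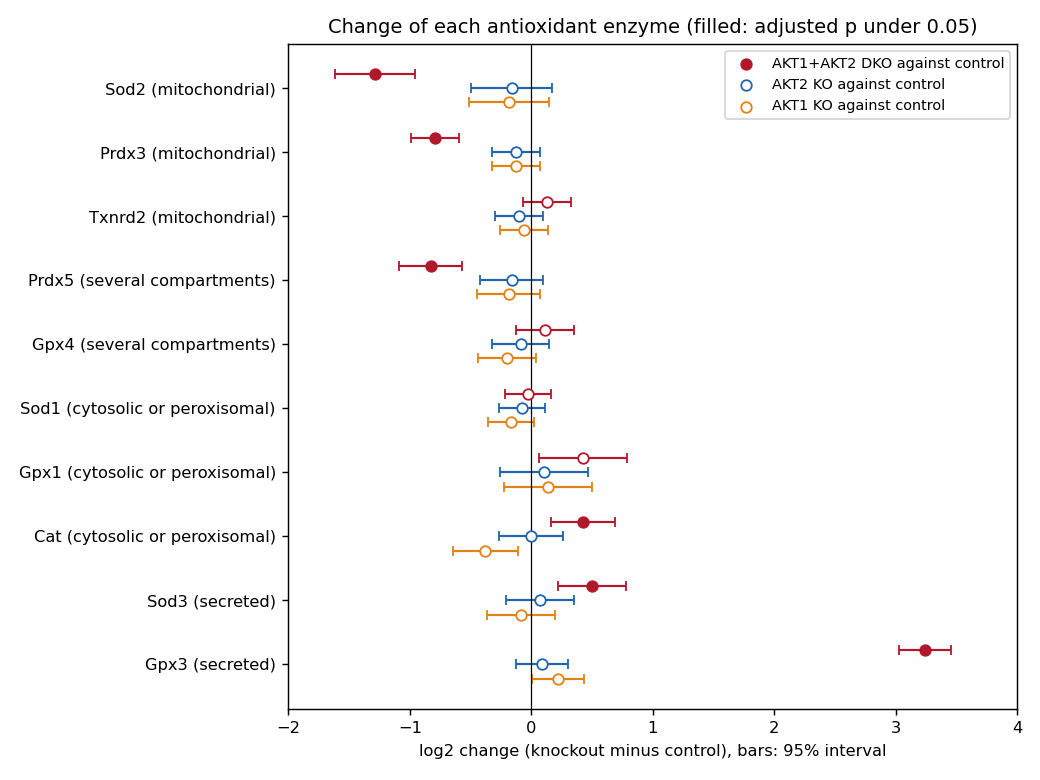
Log2 change of each enzyme in DKO, AKT2 KO and AKT1 KO hearts against control (horizontal axis; points with 95% intervals, filled where the adjusted p is under 0.05). Only DKO points are filled: Sod2, Prdx3 and Prdx5 lie between -1.29 and -0.80, Cat and Sod3 near 0.43 and 0.50, and Gpx3 at 3.24.

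Each of the 6 called changes kept its sign on both slides. Within slide 1, with 2 arrays a group, the log2 changes in DKO were -1.11 for Sod2, -0.79 for Prdx3, -0.81 for Prdx5, 0.39 for Cat, 0.47 for Sod3 and 3.23 for Gpx3. Within slide 2 they were -1.46 for Sod2, -0.80 for Prdx3, -0.85 for Prdx5, 0.46 for Cat, 0.53 for Sod3 and 3.26 for Gpx3. Cat and Sod3 did not pass the test within slide 2 (limma adjusted p = 0.207 and 0.115), and the other 4 passed within both.

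DKO replicate 3 was often at an end of its group. It was the lowest DKO array for 5 of 10 members, Sod2, Prdx3, Txnrd2, Prdx5 and Gpx4, which are the mitochondrial ones and those in several compartments, and the highest for 3, Gpx1, Cat and Sod3. Under quantile normalization it was the lowest for 7, Sod1 and Gpx3 being the added ones, and the highest for the same 3, and under normexp background correction it was the lowest for 3. Among AKT1 KO arrays, replicate 1 was the lowest for 10 of 10 members, and for 7 of 10 under quantile normalization, where it was the highest for Sod1.

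No member passed the test in the single knockouts. In AKT2 KO hearts 0 of 10 members were called by limma, against 0.131% of all genes, and 0 had an unadjusted p under 0.05. Their log2 changes ran from -0.16 for Sod2 to 0.11 for Gpx1, and the groups did not overlap for 1 of 10 members, Sod2, against 7.62% of all genes. In AKT1 KO hearts 0 of 10 were called by limma, against 0.794% of all genes, and 2 had an unadjusted p under 0.05. These were Cat, with a log2 change of -0.38 (interval -0.64 to -0.11, adjusted p = 0.334), and Gpx3, with 0.22 (upper bound of the interval 0.43, adjusted p = 0.667). For 1 of 10 members, Cat, the AKT1 KO and control arrays did not overlap, against 9.19% of all genes. With array weights Cat passed the test in AKT1 KO hearts (-0.28, adjusted p = 0.0430). Tests and intervals of the single knockouts use 1 spread per gene from all 4 groups, DKO included. The intervals reached down to -0.51 for Sod2, -0.33 for Prdx3 and -0.44 for Prdx5, short of the change of each in DKO hearts. For Gpx3 they reached up to 0.43.

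The 6 members called in DKO against control were called again against each single knockout, in the same direction. Against AKT2 KO, 6 of 10 were called, beside 42.1% of all genes (3 higher and 3 lower, beside 23.5% and 18.6%), and the groups did not overlap for 7 of 10, beside 38.7%. Against AKT1 KO, 7 of 10 were called, beside 47% of all genes (4 higher and 3 lower, beside 26.7% and 20.3%), and the groups did not overlap for 6 of 10, beside 36.9%. These comparisons share the 4 DKO arrays with the comparison against control. Sod2 was 1.12 lower than in AKT2 KO and 1.11 lower than in AKT1 KO on the log2 scale, Prdx3 was 0.67 lower than in either, and Gpx3 was 3.15 higher than in AKT2 KO and 3.02 higher than in AKT1 KO. Cat was 0.43 higher than in AKT2 KO (adjusted p = 0.0127) and 0.80 higher than in AKT1 KO (adjusted p = 0.000125). Gpx4 was the added call against AKT1 KO, at 0.31 (limma adjusted p = 0.0311). That call was lost or reversed in 10 of 30 settings, among them those without AKT1 KO replicate 1 or 4 or DKO replicate 1 or 4. Without AKT1 KO replicate 1 it was 0.19 (limma adjusted p = 0.0735), and under quantile normalization it turned to -0.046. Sod3 lost its call against AKT2 KO without AKT2 KO replicate 3 (0.37, limma adjusted p = 0.0540). Cat lost its call against AKT2 KO in the fit to the groups compared only (limma adjusted p = 0.0512). Within slide 2, with 2 arrays a group, Cat, Sod3 and Prdx5 lost theirs against AKT2 KO (limma adjusted p = 0.270, 0.115 and 0.0540). Prdx5 also lost its call against AKT1 KO within that slide (limma adjusted p = 0.103).

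Whether the change in the double knockout differs from the sum of the changes in the single ones was tested as the interaction of both deletions, on the log2 scale. For 4 of 10 members this departure from additivity passed the test, against 26% of all genes, and 2 were higher and 2 lower, against 15.9% and 10.1%. It was 2.94 for Gpx3 (interval 2.63 to 3.24, limma adjusted p = 2.42e-08), -0.94 for Sod2 (interval -1.41 to -0.48, limma adjusted p = 0.00599), 0.81 for Cat (interval 0.43 to 1.18, limma adjusted p = 0.00421) and -0.54 for Prdx3 (interval -0.82 to -0.26, limma adjusted p = 0.00750). For Cat the change was 0.43 in DKO hearts and the sum of the single changes was -0.38. Prdx5 and Sod3 missed the threshold narrowly, at -0.48 (limma adjusted p = 0.0509) and 0.51 (limma adjusted p = 0.0521). Without AKT1 KO replicate 1 Prdx5 passed, at -0.62 (limma adjusted p = 0.00138), and Sod3 passed without AKT1 KO replicate 2 or 3 or DKO replicate 4, at 0.57 to 0.60. With slide as a block both passed (limma adjusted p = 0.0412 for Prdx5 and 0.0327 for Sod3). In turn, Prdx3 lost its call under normexp background correction (-0.47, limma adjusted p = 0.0527), and within slide 2, with 2 arrays a group, Sod2, Prdx3 and Cat lost theirs (limma adjusted p = 0.170, 0.215 and 0.218). Txnrd2 passed without DKO replicate 3 (0.35, limma adjusted p = 0.0299) and Gpx4 without AKT1 KO replicate 3 (0.49, limma adjusted p = 0.0218).

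**Figure D3:**
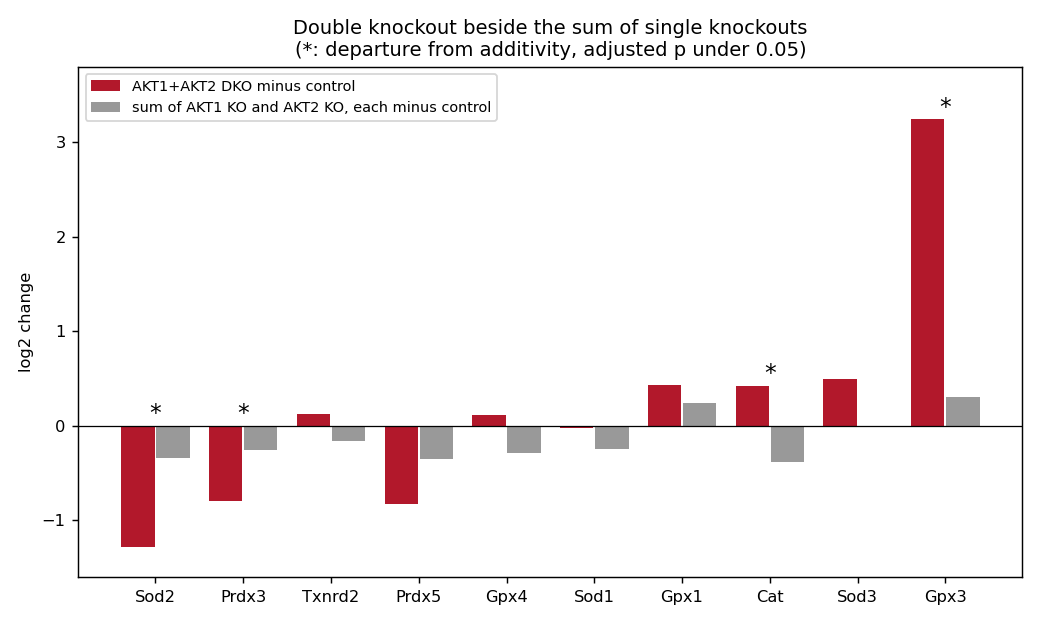
Log2 change in DKO hearts (red bars) beside the sum of the changes in AKT1 KO and AKT2 KO hearts (grey bars), each against control; stars mark a departure from additivity with adjusted p under 0.05. The stars stand over Sod2, Prdx3, Cat and Gpx3, and in Cat the bars point opposite ways.

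Related genes were read from 7 lists. Of 8 other family members tested, 4 were higher in DKO hearts and none lower, against 24.4% and 21.2% of all genes, with a median log2 change of 0.12 beside 0.02 over all genes. Prdx4 and Gpx7, both enzymes of the endoplasmic reticulum, were 0.50 and 0.57 higher (adjusted p = 0.000612 and 0.00221), and Gpx8, of the same compartment, was 0.45 higher (adjusted p = 0.00938). Without DKO replicate 3 Prdx4, Gpx7 and Gpx8 were 0.43, 0.42 and 0.59 higher (limma adjusted p = 0.000970, 0.00138 and 0.000115). Prdx6, the cytosolic peroxiredoxin with a single active cysteine, was 0.25 higher (adjusted p = 0.0474). That call was lost or reversed in 23 of 30 settings, 12 of them leaving out 1 array, and quantile normalization turned it to -0.20 (adjusted p = 0.00827). The cytosolic peroxiredoxins Prdx1 and Prdx2 read -0.16 and -0.21 (adjusted p = 0.155 and 0.128). Both were called lower with the authors' values, at -0.28 and -0.33, and under quantile normalization, at -0.59 and -0.63. Prdx2 was also called lower with array weights and without AKT1 KO replicate 1. Ccs, the copper chaperone of Sod1, read -0.01, and Gpx2 read -0.09. The fibroblast markers moved in the same direction as the 3 endoplasmic reticulum enzymes, and their part in these changes was not tested.

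Of 17 thioredoxin, glutaredoxin and repair genes tested, 3 were higher and 5 lower in DKO hearts, against 24.4% and 21.2% of all genes, with a median of -0.07. Msrb2, a mitochondrial methionine sulfoxide reductase, was 2.66-fold lower (log2 change -1.41, adjusted p = 4.57e-06), mitochondrial thioredoxin Txn2 was 0.43 lower (adjusted p = 0.00158) and Glrx5, a mitochondrial glutaredoxin of iron-sulfur cluster assembly, was 0.67 lower (adjusted p = 0.000104). Msrb1, a selenoprotein reductase of cytosol and nucleus, was 0.63 lower (adjusted p = 0.000214). Txnrd1, the cytosolic counterpart of Txnrd2, was 1.64-fold higher (log2 change 0.71, adjusted p = 0.000797).

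In glutathione synthesis and NADPH supply, 6 of 14 genes were higher and 4 lower in DKO hearts, against 24.4% and 21.2% of all genes, with a median of -0.13. Gss, glutathione synthetase, was 0.87 higher (adjusted p = 0.000230) and G6pdx, the entry enzyme of the pentose phosphate pathway, 0.77 higher (adjusted p = 3.81e-05). Aldh1l2, Me3 and Idh1, which make NADPH in mitochondria or, for Idh1, in the cytosol, were 1.92, 0.57 and 0.60 lower (adjusted p = 6.61e-06, 0.00171 and 0.000552). Aldh1l2 lay well above background on 3 of the 4 DKO arrays. Without DKO replicate 3 the changes of Gss and Me3 were 0.67 and -0.45 (limma adjusted p = 4.77e-06 and 0.00202).

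Of 15 genes of selenoprotein synthesis and selenium transport tested, Sepsecs passed the filter through the DKO arrays alone. Of the other 14, 5 were higher and 1 lower in DKO hearts, against 24.4% and 21.2% of all genes, with a median of 0.11. Sepsecs, which makes selenocysteine on its transfer RNA, lay well above background on 4 of 4 DKO arrays and 0 of 4 control arrays and was at least 6.49-fold higher, which its way through the filter required in direction. A bound of this kind sets the dim arrays at their lowest signal well above background. Without the filter on dim probes a different probe, which does not pass that filter, stood for Sepsecs and read -0.03 (adjusted p = 0.917). Pstk, the kinase of the step before Sepsecs, was 0.87 lower (adjusted p = 1.10e-06). Selenos, Selenok and Selenof, selenoproteins of the endoplasmic reticulum, were 0.83, 0.61 and 0.53 higher (adjusted p = 1.58e-06, 4.30e-05 and 0.00156).

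Of 12 genes linked to NRF2 or to haem and metal defence, 5 were higher and 1 lower, against 24.4% and 21.2% of all genes, with a median of 0.15. Nqo1, a quinone reductase, and Blvrb, a biliverdin reductase, were 0.69 and 0.60 higher (adjusted p = 0.000705 and 8.81e-05), and Hmox2, the constitutive haem oxygenase, was 0.45 lower (adjusted p = 0.00200). Hmox1, the inducible haem oxygenase, was 1.84 higher (adjusted p = 0.0202), but DKO replicate 3 read 4.66 against 0.94 to 1.32 on the other DKO arrays, and without it the change was 0.94 (adjusted p = 0.000191). The call of Hmox1 was lost within slide 2 and in the fit to the groups compared only (limma adjusted p = 0.112 and 0.0971). Nfe2l2, which encodes NRF2, was 0.45 higher (adjusted p = 0.0397). That call was lost in 10 of 30 settings, and without DKO replicate 3 the change was 0.24 (adjusted p = 0.0627). In AKT2 KO hearts Blvrb was 0.91 higher (adjusted p = 0.000116) and Ftl1, the ferritin light chain, 2.00-fold lower (adjusted p = 0.00565). Both lie on chromosome 7, as does Akt2, and both calls were lost within slide 2. DKO mice carry the same loxP sites in Akt2. Without DKO replicate 3, Blvrb was 0.69 higher in DKO than in control hearts (limma adjusted p = 2.99e-06) and Ftl1 read -0.02 (limma adjusted p = 0.914). A part of the chromosome in these changes was not tested.

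Among superoxide sources and uncoupling proteins 6 of 12 genes were higher and 2 lower, against 24.4% and 21.2% of all genes, with a median of 0.45. Maoa, a mitochondrial monoamine oxidase that releases hydrogen peroxide, was 2.20-fold higher (log2 change 1.13, adjusted p = 3.83e-05). Ncf1, a subunit of the phagocyte oxidase, was 0.96 higher (adjusted p = 0.00858), and macrophage markers moved in the same direction. Ncf1 lay well above background on 3 of the 4 control arrays. Ucp2 and Ucp3, carriers of the inner mitochondrial membrane, were 1.79 and 1.72 lower (adjusted p = 0.00346 and 0.00360), with DKO and control arrays overlapping for both. DKO replicate 3 read 2.38 for Ucp2 against -0.11 to 0.28 on the other 3 DKO arrays, and without it the changes were -2.37 and -2.30.

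Among 12 transcription factors and deacetylases linked to these enzymes 3 were higher and 5 lower, against 24.4% and 21.2% of all genes, with a median of -0.21. Foxo6, a FoxO transcription factor, was 3.94-fold lower (log2 change -1.98, adjusted p = 7.26e-08). Sirt3, the mitochondrial deacetylase known to act on SOD2 protein, was 2.01-fold lower (log2 change -1.01, adjusted p = 0.000190), and Ppargc1b, a coactivator of mitochondrial genes, was 0.92 lower (adjusted p = 0.000971). Without DKO replicate 3 the changes of Sirt3 and Ppargc1b were -0.77 and -0.78 (limma adjusted p = 9.16e-07 and 0.00221). Sirt1 and Rela were 0.46 and 0.49 higher (adjusted p = 0.000597 and 0.000493). In AKT1 KO hearts 0 genes of the 7 lists passed the limma test, with 0 to 2 in each list at an unadjusted p under 0.05, and in AKT2 KO hearts Blvrb and Ftl1 were the calls. Under the alternatives Nqo1 read -0.75 to -0.44 in AKT1 KO hearts and was called lower in 6 of 30 settings. Msrb1 and Blvrb were called lower there in 1 setting each.

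**Figure D4:**
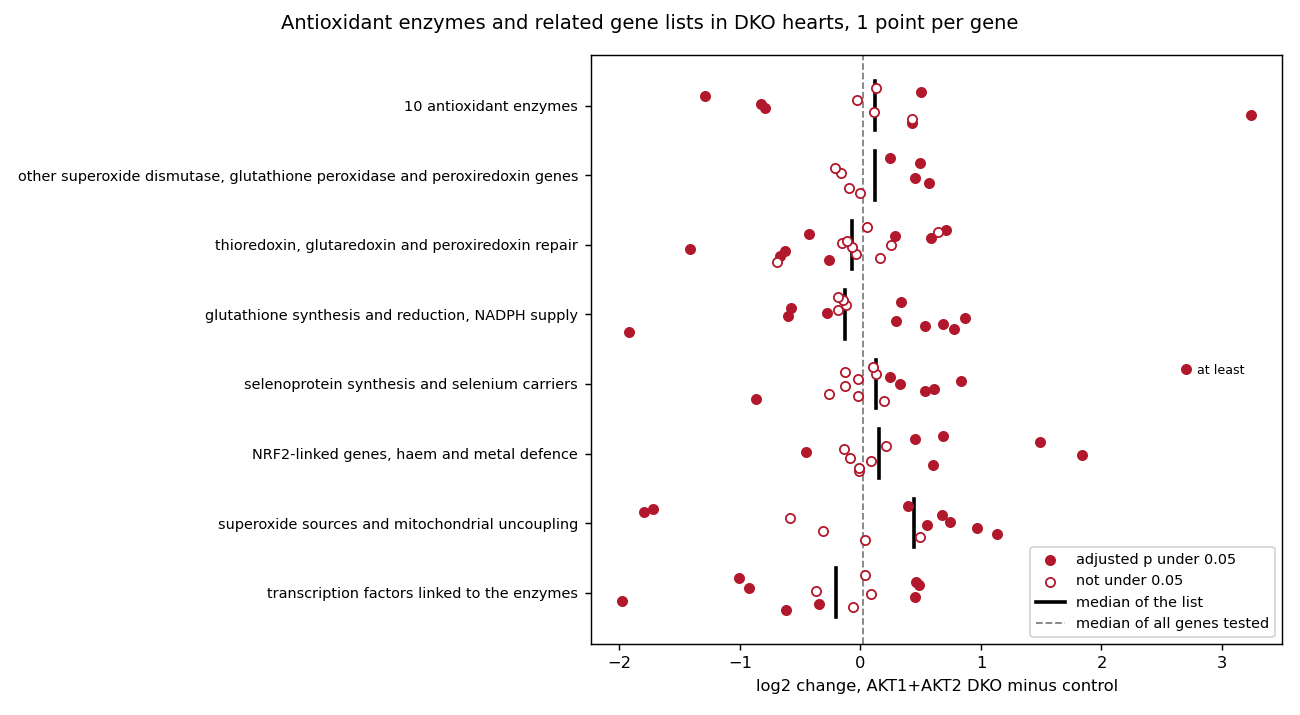
Log2 change in DKO against control hearts for the 10 enzymes and the 7 related lists (horizontal axis; 1 point per gene, filled where the adjusted p is under 0.05; short black line, median of the list; dashed line, median of all genes; Sepsecs at its lower bound). Every list but that of the other family members holds filled points on both sides of 0.

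The genes whose levels followed each called member most closely over the 16 arrays are given as a description, since all of them share the DKO arrays and the scaling. For Sod2 they were Mrm3 and Eml1 (Pearson r = 0.994 and 0.992), for Prdx3 Macrod1 and Prkaca (0.990 and 0.988), and for Prdx5 Ptges2 and Cyc1 (0.981 and 0.980). For Gpx3 they were Tmbim1 and Crim1 (0.992 and 0.992), for Sod3 Scarb2 and Mprip (0.957 and 0.948), for Cat Pfkp and Atraid (0.952 and 0.952), and for Gpx4 Pqbp1 and Tex264 (0.942 and 0.936).

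The scaling of the arrays changed the sizes more for some members than for others. Across the 75th percentile, normexp, quantile, detected-median and authors' values, Gpx3 kept a log2 change of at least 2.91 in DKO hearts and Sod2, Prdx3 and Prdx5 stayed negative, while Sod1 and Gpx4 crossed 0. No scaling moved the median of all genes by over 0.1.

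**Figure D5:**
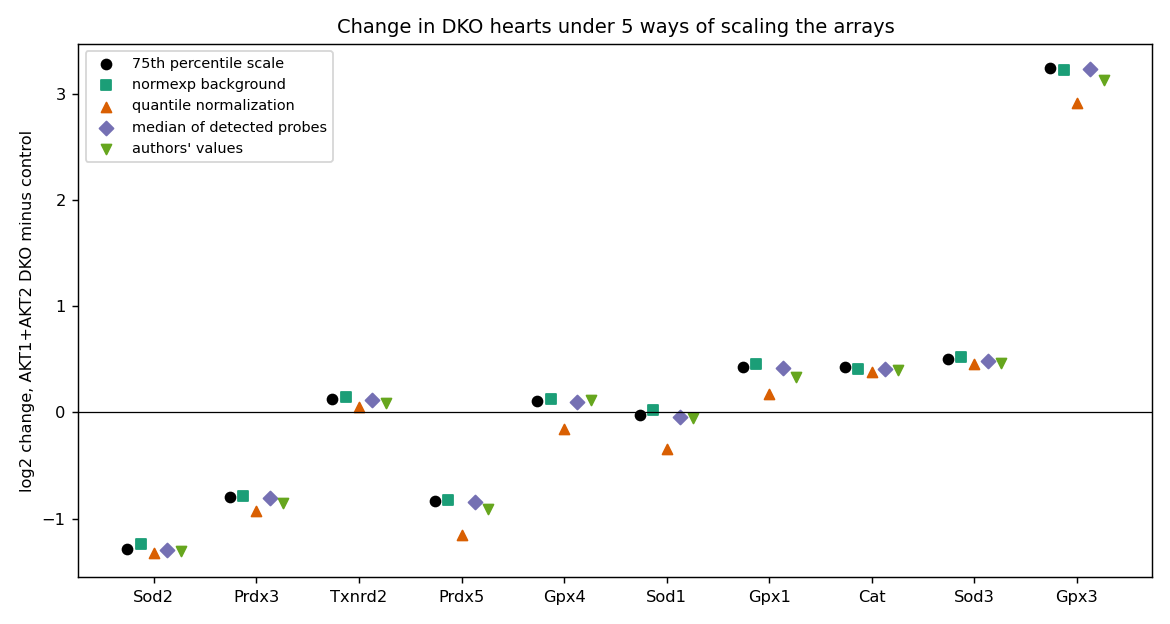
Log2 change of each enzyme in DKO against control hearts under 5 ways of scaling the arrays (vertical axis; 1 symbol per scaling). Quantile normalization gives the lowest value for every enzyme shown, from 2.91 for Gpx3 to -1.32 for Sod2, and it alone puts Gpx4 below 0.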

How the data were processed

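The members, gene lists, motifs and tests were chosen with earlier results of these data known. Scanner files of 16 arrays were deposited, and per the file headers they were written by Feature Extraction, version 12.0.3.1, with a background-subtracted intensity for each spot in 1 colour. The authors also deposited log2 values in which every probe has a median of 0 across samples. Their scale is inferred from a correlation of 0.9947 to 0.9997 with quantile-normalized log2 intensity, their columns share a mean of 0.0560 with medians of -0.0246 to 0.0134, and they served as an alternative. The steps behind them are not given in the sources used here.

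Each log2 intensity was lowered by log2 of its array's 75th percentile (492.1 to 809.4). Control spots and 118 probes with outlier flags were left out, spots of a probe were averaged, and 0 sample columns were unused. Probe accessions were matched to RefSeq symbols, and 32929 of 56487 probes (58.3%) had one. A probe was kept where some group had it well above background on 4 of 4 arrays, and the brightest probe per symbol gave 13725 genes. Group means over the 16 arrays were fitted with limma 3.58.1 in R 4.3.3, with 12 residual and 2.54 prior degrees of freedom, intervals at 95%, and Benjamini-Hochberg adjustment over all genes within each of 6 comparisons at 0.05. The p-values are from this fit unless another setting is named beside them, in which case they come from limma under that setting. The script was tested on simulated data with the same spread in every group, unlike the arrays. A requirement of that test was loosened after it first failed, and no result rests on it. The number of arrays limits the precision. All members, Akt1, Akt2, every tested gene of the first related list and up to 5 called genes with the smallest adjusted p in each other list were named, with the 2 genes of highest correlation for each called member; 1 gene that this rule names is not reported here. Related genes under the alternatives, and counts of which replicate lay lowest or highest, were added after the data were seen. Compartments follow textbook knowledge. Coordinates are those of the RefSeq promoter table for GRCm38.p6, while the file headers name mm9, so none is taken from the files. There were 30 alternative settings, among them scaling, filters, probe choice, weights, blocks, slides and arrays left out.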

Additional observations from a re-analysis of the deposited data

Results flagged for a closer look

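Some arrays lay far from the other 3 of their group by Dixon's test at its 95% critical value. Chance marks about 1 in 20 groups, and 16 of 196 groups (8.16%) were marked among the 49 named genes. DKO replicate 3 accounts for 7 of the 16 and AKT1 KO replicate 1 for 3. Among the enzymes these were Sod2 in DKO replicate 3 (2.15, the others 2.98 to 3.06), Txnrd2 in AKT2 KO replicate 4 (3.95, the others 3.79 to 3.82) and Gpx1 in AKT1 KO replicate 1 (4.48, the others 4.82 to 4.88). In DKO replicate 3 they were also Gpx7 (1.33), Gss (3.94), Me3 (3.97), Hmox1 (4.66), Ucp2 (2.38) and Sirt3 (2.00). In AKT1 KO replicate 1 they were Gpx7 (0.11) and Selenok (4.30). The rest were Prdx1 in control replicate 1 (6.30), Gss in AKT2 KO replicate 4 (2.52), Ftl1 in AKT2 KO replicate 3 (6.07), and Foxo6 in DKO replicate 1 (-1.18) and control replicate 2 (0.22).

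The effect of losing AKT1 differed with the state of AKT2 for 4 enzymes, by the test of departure from additivity: Sod2 (-0.94, adjusted p = 0.00599), Prdx3 (-0.54, adjusted p = 0.00750), Cat (0.81, adjusted p = 0.00421) and Gpx3 (2.94, adjusted p = 2.42e-08).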

How the results depend on the processing

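Across 30 settings the number of enzymes called in DKO against control ran from 4 to 7, and from 6 to 7 when 1 array was left out. Against AKT1 KO it ran from 5 to 8 (6 to 8 with 1 array left out), and against AKT2 KO from 3 to 8 (5 to 8), the 3 being within slide 2. Departure from additivity, over 29 settings since it needs all 4 groups, gave 4 to 6 with 1 array left out, 8 with array weights and 1 within slide 2. In AKT1 KO 1 enzyme was called with array weights and 0 in the other settings, 0 with 1 array left out included, and in AKT2 KO 0 in all 30. Within a slide there are 2 arrays a group, so fewer genes pass. Over all genes the calls ran from 4 to 822 in AKT1 KO (main 109), 3 to 93 in AKT2 KO (main 18), 2464 to 8264 in DKO (main 6257), 2716 to 8202 for DKO against AKT1 KO (main 6450), 1903 to 7477 for DKO against AKT2 KO (main 5780) and 188 to 6154 for additivity (main 3566).

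Quantile normalization reversed Gpx4 (-0.046) and Sod1 (-0.29) in DKO against AKT1 KO, Sod1 in DKO against AKT2 KO (-0.33) and in additivity (-0.27), and Prdx6 in DKO against control (-0.20); Sepsecs was reversed without the filter on dim probes (-0.030). The cause was not tested, other than that this filter changes the probe used for Sepsecs. Of the values of single enzymes under the alternatives, 1690 kept their direction and side of the threshold, 21 lost a call, 38 gained one, 37 moved by more than the spread between replicates and 4 reversed.

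The deviations of arrays from their group means correlated over 0.1 in 19 of 24 pairs that shared slide and row. With slide, or slide and row, as a block the departure from additivity of Prdx5 (limma adjusted p = 0.0412 and 0.0439) and Sod3 (0.0327 and 0.0393) passed the test. Deviations of same-numbered arrays correlated from -0.35 to 0.39 (median 0.14), over 0.1 in 15 of 24 pairs. In control, AKT2 KO and DKO the replicate number follows slide and row, so pairing by number and by position cannot be told apart there. With the replicate block the enzymes called were 6 in DKO, 7 against AKT1 KO, 6 against AKT2 KO, 4 for additivity and 0 in each single knockout. These are the counts of the main fit. There the shares of all genes called were, in the same order, 45.6%, 47%, 42.1% and 26%, with 0.794% in AKT1 KO and 0.131% in AKT2 KO.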
